A study of Mus musculus with 9 samples.

Results

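Polycomb repressive complex 2 (PRC2) places methyl groups on a lysine of histone H3, a mark of silenced genes. Its core is encoded by 6 mouse genes, Suz12, Eed, Ezh2, Ezh1, Rbbp4 and Rbbp7, which were chosen by these symbols through their Entrez identifiers. All 6 were found among the 27179 genes of the count table, and all 6 were among the 12840 genes that passed the filter on low counts. The RNA came from alveolar macrophages, the resident phagocytes of the airspaces, sorted from the lungs of C57BL/6 mice aged 1 week. The 5 libraries labelled Suz12 cKO carried a conditional knockout of Suz12, and the 4 libraries labelled Wild type served as controls. The Cre driver, the deleted exons, the sorting gate, and whether a library came from 1 mouse or a pool are not known from the labels. The series text calls the libraries biological replicates, without saying whether litters were shared.

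In the complex, SUZ12 is the scaffold on which the other subunits assemble, and EED binds the methylated histone tail and stimulates the enzyme. EZH2 and EZH1 are alternative catalytic subunits, EZH2 being typical of dividing cells and EZH1 of resting ones. RBBP4 and RBBP7 are closely related WD-repeat proteins that bind histones, and they also belong to other chromatin complexes, among them NuRD, Sin3 and, for RBBP4, the replication-coupled chaperone CAF-1. Alveolar macrophages settle in the lung around birth and then renew themselves by division.

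The transcripts of the core differed in their response. Suz12 fell to 24.0% of its wild type mean in Suz12 cKO macrophages, and Rbbp4 fell to 67.2%, while Eed, Ezh2, Ezh1 and Rbbp7 did not pass the test. Of the 6 genes, 2 were called lower and 0 higher at an adjusted p under 0.05 by the quasi-likelihood test of edgeR, adjusted over all tested genes. The 2 include the targeted Suz12, whose decrease was built into the design. Of all 12840 tested genes, 19.9% were called in either direction, 11% lower and 8.97% higher. The median log2 fold change of the 6 genes was 0.17, against 0.04 over all tested genes.

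The libraries held between 13.8 and 45.6 M (1e6) counts assigned to genes. The groups did not overlap in the number of genes with a count, 15364 to 16757 in Suz12 cKO libraries and 12396 to 13372 in wild type libraries. Depth overlapped, and Suz12 cKO library 4 had 15480 such genes at 18.6 M counts while wild type library 4 had 13168 at 25.3 M. Genes without a RefSeq symbol held 0.875% to 1.20% of the counts in Suz12 cKO libraries and 2.75% to 4.43% in wild type libraries. These measures separate the same libraries as the genotype, so they and the genotype cannot be told apart in any difference given here. Xist, the RNA of the inactive X chromosome, was above 300 CPM (counts scaled to 1e6 per library) in 2 of 5 Suz12 cKO libraries (2 and 5) and in 3 of 4 wild type libraries (1, 2 and 3), and the Y-linked Ddx3y was above 60 CPM in the others, so sex was not balanced between the groups. The 10 alveolar macrophage markers were all detected and summed to between 17181 and 43601 CPM in Suz12 cKO libraries and between 24102 and 62004 CPM in wild type libraries, and 2 of them (Marco and Lpl) were called higher and 1 (Car4) lower. The 8 interstitial macrophage markers summed to 7.53 to 130 CPM in Suz12 cKO libraries and 92.2 to 796 CPM in wild type libraries, with 0 of the 6 tested called in either direction. The 7 monocyte markers summed to 1729 to 3734 CPM in Suz12 cKO and 1684 to 2645 CPM in wild type, with 1 (Ms4a4c) called lower, and the 7 dendritic cell markers to 2.75 to 9.56 CPM in Suz12 cKO and 6.25 to 22.8 CPM in wild type, with 1 (Ccr7) called lower. The 6 eosinophil and mast cell markers summed to 0.146 to 1.20 CPM in Suz12 cKO and 0 to 0.0913 CPM in wild type, with Epx, Mcpt4 and Tpsb2 at 0 in all libraries. Markers of lymphocytes were low, with 7 T and NK cell genes summing to 2.75 to 7.61 CPM in Suz12 cKO and 3.44 to 9.49 CPM in wild type, and 5 B cell genes to 8.04 to 24.7 CPM and 12.5 to 26.9 CPM in the same groups. For 9 epithelial genes the sums were 15.0 to 59.9 CPM in Suz12 cKO and 13.2 to 35.4 CPM in wild type, for 6 fibroblast genes 4.11 to 9.57 CPM and 0 to 6.37 CPM, for 6 endothelial genes 4.71 to 6.82 CPM and 1.05 to 4.81 CPM, and for 8 neutrophil genes 33.0 to 114 CPM and 46.4 to 73.1 CPM. The part of such cells in the results that follow was not tested. In this bulk RNA, fewer cells expressing a gene and less of its RNA per cell cannot be told apart.

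Suz12 (Entrez Gene 52615, chr11:79993106-80034123 of GRCm38.p6) is the targeted gene and checks the labels. It stood at 11.9, 14.7, 21.8, 13.1 and 18.5 CPM in the Suz12 cKO libraries 1 to 5, and at 67.5, 76.7, 51.7 and 70.7 CPM in the wild type libraries 1 to 4. Every Suz12 cKO library was below every wild type library, as was the case for 9.87% of all tested genes. The means were 16.0 ± 4.11 CPM (SD, n = 5) in Suz12 cKO and 66.6 ± 10.7 CPM (SD, n = 4) in wild type, and the log2 fold change was -2.06 (SE 0.18, 95% interval -2.44 to -1.68, adjusted p = 1.69e-05 by edgeR). By p-value Suz12 took rank 9 of the 12840 tested genes, and by the size of its decrease rank 36.

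Suz12 RNA was not lost altogether. Between 252 and 887 counts per Suz12 cKO library were assigned to the gene, against 650 to 1913 counts per wild type library. Set against the wild type mean, 17.9% of the level remained in Suz12 cKO library 1, 22.0% in library 2, 32.7% in library 3, 19.6% in library 4 and 27.8% in library 5. Library 3 thus kept the most and library 1 the least. Counts cover the whole gene, so transcripts lacking the deleted exons and full transcripts from cells that kept the gene cannot be told apart.

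**Figure D1:**
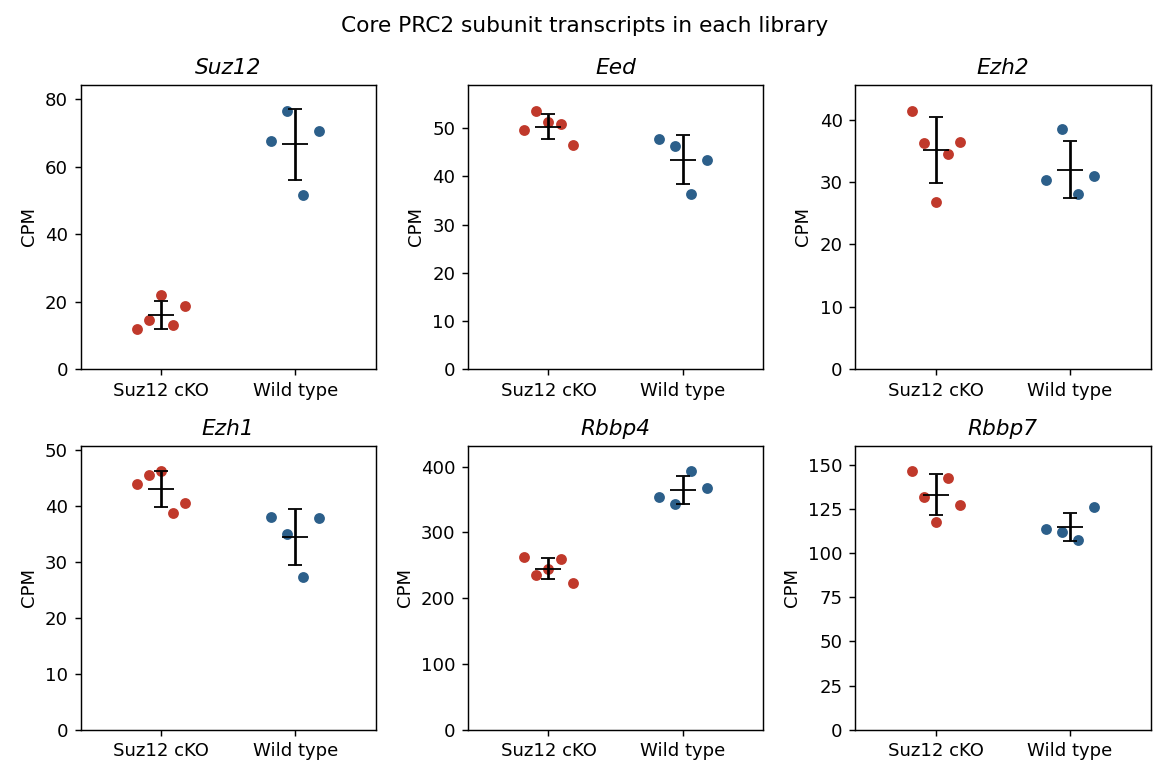
CPM of each core subunit in every library, with Suz12 cKO (red, n = 5) left of wild type (blue, n = 4), and with black bars for the mean and SD. Suz12 and Rbbp4 are lower in all Suz12 cKO libraries than in any wild type library, Ezh1 is higher in all of them by a narrow gap, and the groups overlap for Eed, Ezh2 and Rbbp7.

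The genes beside Suz12 on chromosome 11 were examined for changes around the targeted locus. The nearest tested protein-coding neighbours are Utp6, a factor of ribosomal RNA processing, and Crlf3, a cytokine receptor-like factor. Utp6 averaged 76.2 ± 3.80 CPM in Suz12 cKO and 77.1 ± 4.75 CPM in wild type (difference of -0.02 on the log2 scale, SE 0.08, adjusted p = 0.916 by edgeR), a sign that turned positive when libraries were scaled by their totals alone or without Suz12 cKO library 3 or wild type library 3 or 4. Crlf3 averaged 60.3 ± 3.64 CPM in Suz12 cKO and 55.4 ± 6.73 CPM in wild type (0.12 on the log2 scale, SE 0.10, with an adjusted p of 0.456 by edgeR). Of the 18 tested genes within 1 Mb of Suz12 on either side, both neighbours included, 2 were called higher (Ksr1 and 5730455P16Rik) and 2 lower (Evi2a and Tefm), names given after their values were seen. Over all tested genes 8.97% were called higher and 11% lower. The median log2 fold change of the 18 genes was 0.14, against 0.04 over all tested genes.

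Eed (Entrez Gene 13626, chr7:89954654-89980976), the reader of the mark, did not pass the test. Its levels were 49.6, 53.6, 51.3, 50.8 and 46.5 CPM in Suz12 cKO libraries and 47.7, 46.4, 36.3 and 43.5 CPM in wild type libraries. The groups overlapped, with wild type library 3 the lowest of all 9. The log2 fold change was 0.21 (SE 0.10, 95% interval -0.01 to 0.43, adjusted p = 0.183 by edgeR). Per kilobase of gene length, which allows levels of different genes to be compared, Eed was the third most abundant core transcript in all 9 libraries.

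Suz12 and Eed proteins meet in the core, and the ratio of their transcripts within a library does not depend on how libraries are scaled to each other. Per kilobase there were 0.113, 0.129, 0.200, 0.121 and 0.188 Suz12 transcripts for each Eed transcript in Suz12 cKO libraries, and 0.667, 0.778, 0.670 and 0.766 in wild type libraries. The mean log2 ratio was -2.78 ± 0.38 (SD, n = 5) in Suz12 cKO and -0.48 ± 0.12 (SD, n = 4) in wild type. The difference of -2.30 gave p = 0.00794 in a two-sided exact permutation test, the smallest that the 126 splits of 9 libraries allow. After adjustment over the 4 ratios tested it was 0.0159. Since Suz12 is the targeted gene, a difference was built into this ratio, and its test says no more than that the labels hold.

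The catalytic subunits Ezh2 and Ezh1 did not pass the test either. Ezh2 (Entrez Gene 14056, chr6:47530274-47595270) stood at 41.5, 36.3, 26.8, 34.5 and 36.4 CPM in Suz12 cKO libraries and at 30.3, 38.6, 28.1 and 31.0 CPM in wild type libraries. Suz12 cKO held both the highest library (1) and the lowest (3). The log2 fold change was 0.13 (SE 0.14, 95% interval -0.17 to 0.43, adjusted p = 0.567 by edgeR). Ezh1 (Entrez Gene 14055, chr11:101191115-101226463) stood at 43.9, 45.5, 46.1, 38.7 and 40.5 CPM in Suz12 cKO libraries and at 37.9, 34.9, 27.3 and 37.8 CPM in wild type libraries. Here the groups did not overlap, all Suz12 cKO libraries lying above all wild type libraries, which held for 10.9% of all tested genes. Groups without overlap in either direction were found for 3 of the 6 core genes and for 20.8% of all tested genes. The 3 include the targeted Suz12, whose separation was built into the design. The log2 fold change of Ezh1 was 0.31 (SE 0.12, 95% interval 0.06 to 0.57 before adjustment, adjusted p = 0.0836 by edgeR). Leaving out 1 library at a time gave 0.23 to 0.37 for Ezh1, with adjusted p of 0.0663 to 0.176 by edgeR. After a correction for gene length it was 0.20 (adjusted p = 0.243 by edgeR). The 500 genes nearest to Ezh1 in length had a median of 0.09. With libraries scaled by their totals alone Ezh1 was called higher (0.43, adjusted p = 0.0281 by edgeR). Under that scaling the tested genes as a whole had a median of 0.15 on the log2 scale, against 0.04 with TMM, and 1966 were called higher and 1013 lower, against 1152 and 1409.

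Within each library Ezh2 and Ezh1 transcripts were present in similar amounts. The ratio of Ezh2 to Ezh1 per kilobase was 1.49, 1.25, 0.915, 1.40 and 1.41 in Suz12 cKO libraries and 1.26, 1.74, 1.62 and 1.29 in wild type libraries. Ezh2 was the more abundant in 8 of 9 libraries, the exception being Suz12 cKO library 3, and the groups overlapped. The mean log2 ratio was 0.35 ± 0.28 (SD, n = 5) in Suz12 cKO and 0.55 ± 0.23 (SD, n = 4) in wild type, with exact permutation p = 0.325 (adjusted 0.434). The sum of both transcripts was 23.4 ± 1.94 CPM per kilobase (SD, n = 5) in Suz12 cKO and 20.2 ± 2.37 CPM per kilobase (SD, n = 4) in wild type. The ratio of Ezh2 to Eed also overlapped between the groups (mean log2 ratio -0.91 ± 0.26 in Suz12 cKO, n = 5, and -0.82 ± 0.17 in wild type, n = 4, exact permutation p = 0.611, which is also the adjusted value).

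**Figure D2:**
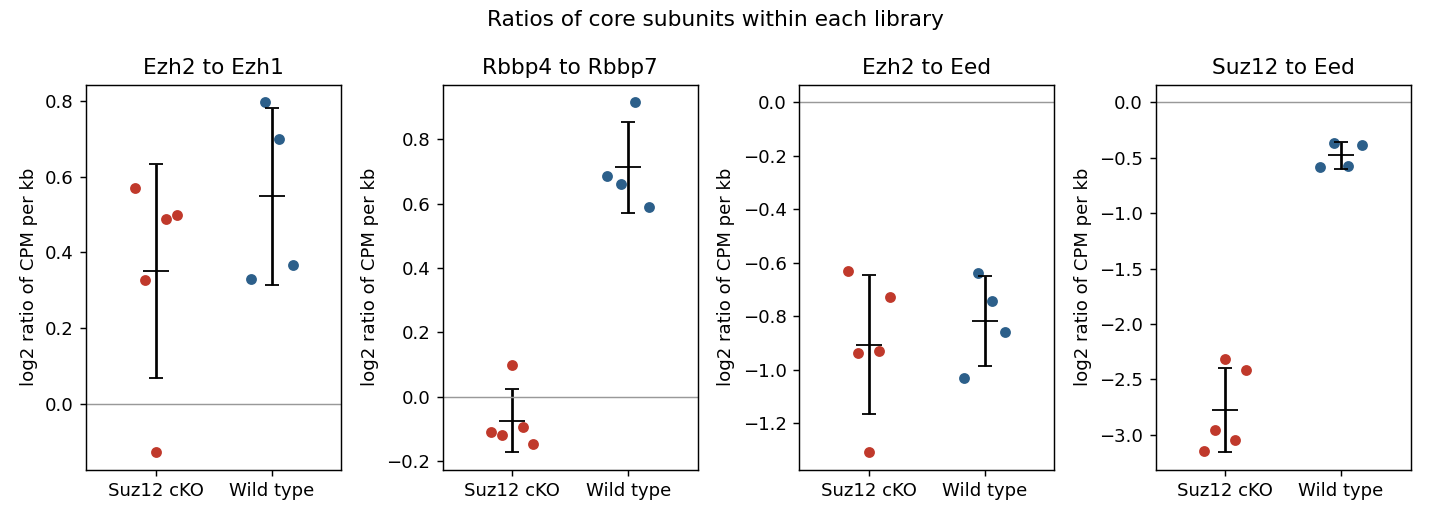
Log2 ratio of CPM per kilobase between pairs of core subunits within each library, Suz12 cKO (red, n = 5) left of wild type (blue, n = 4), with the mean and SD in black and a line where both transcripts are equal. The groups are apart for Rbbp4 to Rbbp7 and for Suz12 to Eed, and overlap for both ratios of Ezh2.

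Ezh2 is a known target of the E2F factors that drive replication genes, so a list of 35 replication and proliferation genes was set beside it. The mean log2 CPM of the list was 5.63, 5.34, 4.77, 5.44 and 5.31 in Suz12 cKO libraries and 5.58, 5.54, 5.52 and 5.64 in wild type libraries. Suz12 cKO library 3, which had the least Ezh2, also had the lowest level of the list. Within its group Suz12 cKO library 1 had the most of both. The remaining libraries did not keep a common order. Suz12 cKO libraries 4, 2 and 5 went down on the list (5.44, 5.34 and 5.31) but not for Ezh2 (34.5, 36.3 and 36.4 CPM). In wild type, library 4 was highest on the list and library 2 for Ezh2. Ezh1 had its highest value in Suz12 cKO library 3. Without library 3 Ezh2 differed by 0.22 on the log2 scale (edgeR, adjusted p = 0.257). The 35 genes had a median log2 fold change of -0.23, against 0.04 over all tested genes. Without Suz12 cKO library 1, 11 of them were called lower, beside 1147 of all 12657 tested genes. Without Suz12 cKO library 3, 5 were called lower, beside 1410 of all 12717 tested genes. With all libraries 6 were called lower (17.1%, against 11% of all tested genes) and 0 higher. They included Pcna, the replication clamp (-0.61, SE 0.10), Cdk1, the mitotic kinase (-0.69, SE 0.14), Gins2 of the replicative helicase (-0.69, SE 0.17), the thymidylate synthase Tyms (-0.57, SE 0.15) and the thymidine kinase Tk1 (-0.59, SE 0.16). The call of Tk1 was lost without wild type library 1 or 4 (adjusted p = 0.0561 and 0.0511 by edgeR), and those of Tk1 and Gins2 were lost after the gene length correction (0.0879 and 0.139 by edgeR). Ezh2, with a log2 fold change of 0.13, did not share the negative sign of these genes.

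**Figure D3:**
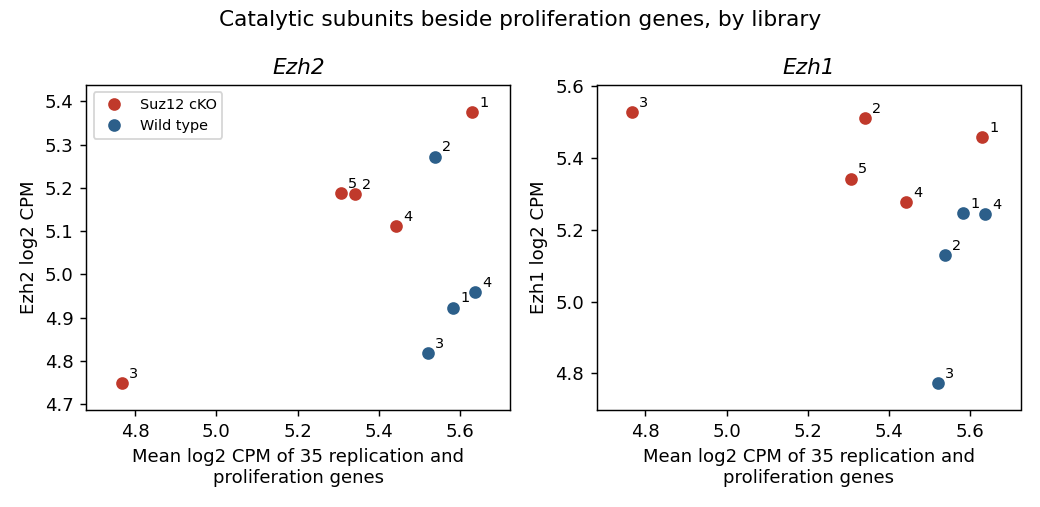
Log2 CPM of Ezh2 (left) and Ezh1 (right) against the mean log2 CPM of 35 replication and proliferation genes, each point being a library numbered by replicate (red, Suz12 cKO, n = 5, and blue, wild type, n = 4). Suz12 cKO library 3 lies lowest on the proliferation axis at 4.77 and is lowest for Ezh2 and highest for Ezh1.

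Rbbp4 (Entrez Gene 19646, chr4:129307100-129335370) was the other core gene called. It stood at 263, 236, 244, 259 and 223 CPM in Suz12 cKO libraries and at 354, 344, 393 and 368 CPM in wild type libraries. The highest Suz12 cKO library was below the lowest wild type library, as held for 9.87% of all tested genes. The means were 245 ± 16.5 CPM (SD, n = 5) in Suz12 cKO and 365 ± 21.1 CPM (SD, n = 4) in wild type, and the log2 fold change was -0.57 (SE 0.08, 95% interval -0.74 to -0.41, adjusted p = 2.39e-04 by edgeR), rank 184 by p-value. It remained called without any of the 9 libraries in turn, with a log2 fold change of -0.60 to -0.53. Fold changes in these libraries moved with gene length, with a median of -0.42 in the shortest 10% of genes and 0.14 in the longest 10%. Rbbp4 is a long gene (4407 bases), the 500 genes nearest to it in length had a median of 0.12, and after a correction for length its log2 fold change was -0.70.

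Rbbp7 (Entrez Gene 245688, chrX:162760372-162779090) did not fall with its paralog. It stood at 146, 132, 118, 142 and 127 CPM in Suz12 cKO libraries and at 114, 112, 107 and 126 CPM in wild type libraries. The groups overlapped through Suz12 cKO library 3 and wild type library 4. The log2 fold change was 0.21 (SE 0.09, 95% interval 0.02 to 0.40 before adjustment, adjusted p = 0.108 by edgeR). It was called higher without Suz12 cKO library 3 (0.26, adjusted p = 0.0382 by edgeR) and with library totals alone (0.33, adjusted p = 0.0247 by edgeR). Since Rbbp7 is X-linked, the sexes were also compared separately. In libraries with Xist the values were 132 and 127 CPM in Suz12 cKO and 114, 112 and 107 CPM in wild type, and in libraries with Y-linked RNA they were 146, 118 and 142 CPM in Suz12 cKO and 126 CPM in the single wild type library. With Xist as a covariate Rbbp7 differed by 0.17 on the log2 scale (edgeR, adjusted p = 0.212), and in the libraries with Xist only by 0.20 (edgeR, adjusted p = 0.300).

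**Figure D4:**
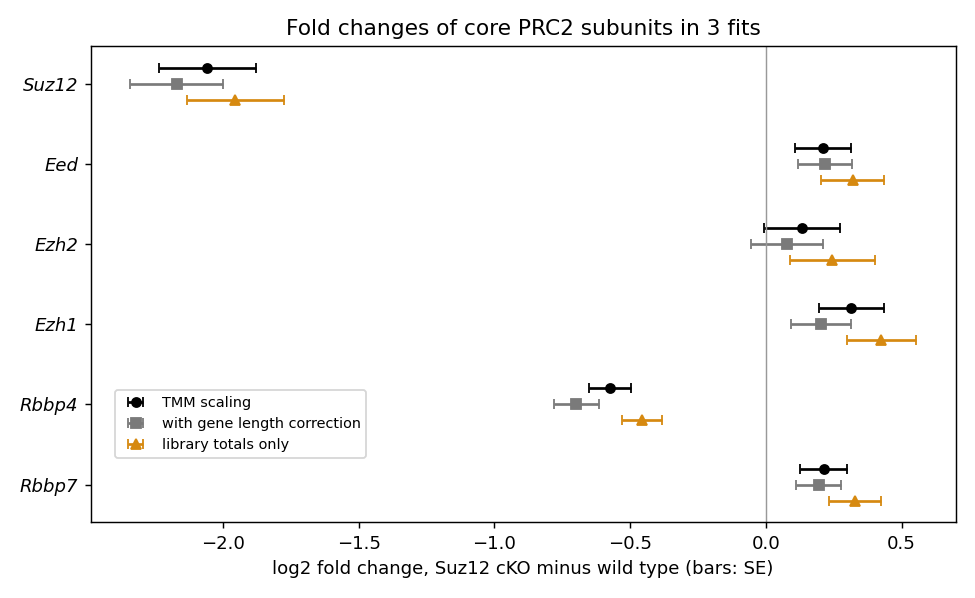
Log2 fold change (Suz12 cKO minus wild type) of the core subunits, with bars of 1 SE, from the edgeR fit with TMM scaling (circles), with a gene length correction (squares) and with library totals alone (triangles), on 5 Suz12 cKO and 4 wild type libraries. Each gene keeps its side of 0 in all 3 fits, and Rbbp4 lies between -0.70 and -0.46.

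The balance of the 2 histone-binding paralogs differed between the groups. The ratio of Rbbp4 to Rbbp7 per kilobase was 0.928, 0.922, 1.07, 0.937 and 0.903 in Suz12 cKO libraries and 1.61, 1.58, 1.89 and 1.50 in wild type libraries. Rbbp7 was the more abundant in 4 of 5 Suz12 cKO libraries, and Rbbp4 in all 4 wild type libraries and in Suz12 cKO library 3. The mean log2 ratio was -0.07 ± 0.10 (SD, n = 5) in Suz12 cKO and 0.71 ± 0.14 (SD, n = 4) in wild type. The difference was -0.79, with exact permutation p = 0.00794, the smallest these 126 splits allow (adjusted 0.0159 over the 4 ratios, that of the targeted Suz12 included). The 2 genes differ in length (4407 and 2272 bases). Over 12 alternatives, a gene length correction among them, the difference ranged from -0.89 to -0.72. Rbbp4 made up 48.7% ± 1.70 of the summed level in Suz12 cKO (SD, n = 5) and 62.1% ± 2.27 in wild type (SD, n = 4), and the sum was 114 ± 8.07 and 133 ± 5.40 CPM per kilobase in the same groups.

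Reads of 85 bases can tell the paralogs apart in most places. The longest exact run shared by the longest coding transcripts of Rbbp4 and Rbbp7 was 20 bases, and that of Ezh2 and Ezh1 was 17 bases. Overlap with other annotated genes was larger. Of all windows of 85 bases in the Rbbp4 transcript, 30.8% also occurred, on either strand, in transcripts of Gm26722, an annotated noncoding RNA, or of Sync. The shares were 8.93% for Eed (with E230029C05Rik), 7.73% for Rbbp7 (mainly with Txlng), 2.24% for Suz12, 0.333% for Ezh2 and 0% for Ezh1. No source names the strand setting of the counting, and reads from the 2 strands cannot be told apart. In the count table Sync held 31 counts over all 9 libraries, and Txlng 3089. What Gm26722 added to the counts of Rbbp4 was not tested.

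The promoters of both paralog pairs are printed because the members of a pair differ in level or response while their proteins can take the same place in the complex. Each line gives 300 bases from RefSeq (GRCm38.p6), 5′ to 3′ on the strand of the gene. That strand is minus for Ezh2, Ezh1 and Rbbp4 and plus for Rbbp7. A window runs from 250 bases before to 50 after the start site used for it. This site is the 5′ end of the gene span given above, except for Ezh2. For Ezh2 the 5′ end of the span (47595270) lies within the first bases of the window. Capitals mark E2F-type words, searched on both strands. The words were TTGGCGC, then its close variant TTGCCGC, then the variant with TTCCCGC, and lastly the variant with TTCGCGC.
Rbbp4 promoter, chr4:129335321-129335620: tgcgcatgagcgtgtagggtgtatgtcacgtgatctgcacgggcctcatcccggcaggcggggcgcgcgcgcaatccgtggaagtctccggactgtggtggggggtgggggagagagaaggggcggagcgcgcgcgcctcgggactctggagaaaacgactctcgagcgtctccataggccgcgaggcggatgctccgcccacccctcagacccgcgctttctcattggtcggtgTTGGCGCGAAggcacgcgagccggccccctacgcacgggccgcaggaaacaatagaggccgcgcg
Rbbp7 promoter, chrX:162760122-162760421: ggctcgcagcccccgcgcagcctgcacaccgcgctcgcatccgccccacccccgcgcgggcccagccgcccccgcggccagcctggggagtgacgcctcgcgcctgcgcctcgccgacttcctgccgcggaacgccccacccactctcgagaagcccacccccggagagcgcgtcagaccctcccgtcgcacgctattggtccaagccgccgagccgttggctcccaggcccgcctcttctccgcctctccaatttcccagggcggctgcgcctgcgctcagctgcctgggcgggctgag
Ezh2 promoter, chr6:47594981-47595280: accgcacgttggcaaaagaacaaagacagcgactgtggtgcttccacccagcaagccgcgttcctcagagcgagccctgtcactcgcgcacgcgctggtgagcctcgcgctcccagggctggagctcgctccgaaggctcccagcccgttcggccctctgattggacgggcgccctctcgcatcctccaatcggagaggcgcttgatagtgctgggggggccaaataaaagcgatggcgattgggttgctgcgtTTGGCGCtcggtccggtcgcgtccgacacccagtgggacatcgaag
Ezh1 promoter, chr11:101226414-101226713: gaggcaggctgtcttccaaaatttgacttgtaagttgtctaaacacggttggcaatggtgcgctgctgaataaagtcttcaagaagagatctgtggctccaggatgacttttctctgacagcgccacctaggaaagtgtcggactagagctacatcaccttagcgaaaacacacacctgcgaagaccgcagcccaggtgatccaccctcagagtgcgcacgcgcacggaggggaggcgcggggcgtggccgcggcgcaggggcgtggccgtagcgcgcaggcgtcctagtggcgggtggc

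In these windows Rbbp4 had 2 E2F-type matches that overlap each other, TTGGCGC starting at position -15 from the start site and, on the other strand, GCGCGAA at -12. Ezh2 had TTGGCGC at position 5 past the start site used for its window, which is not the 5′ end of its gene span. Suz12, whose promoter was searched but is not printed, had TTCCCGC at -218. None was found in the windows of Rbbp7, Ezh1 and Eed, which says only that these letters are not there. A match was present in 16.4% of the 12469 promoters of tested genes and in 9.57% of all 32851 promoters. The members with a match were Rbbp4, which was called, Ezh2, which was not, and Suz12, the targeted gene. Any bearing of these words on the levels was not tested. All 6 promoters were rich in CpG, with observed over expected ratios from 0.758 (Eed) to 1.12 (Rbbp4), against a median of 0.750 for tested genes.

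Length-scaled levels placed the core genes in a different order in the groups. In Suz12 cKO macrophages the means were 58.6 ± 5.06 CPM per kilobase for Rbbp7, 55.6 ± 3.74 for Rbbp4, 24.5 ± 1.27 for Eed, 13.2 ± 1.99 for Ezh2, 10.2 ± 0.77 for Ezh1 and 3.66 ± 0.94 for Suz12 (SD, n = 5). In wild type macrophages they were 82.8 ± 4.80 for Rbbp4, 50.5 ± 3.54 for Rbbp7, 21.1 ± 2.47 for Eed, 15.2 ± 2.44 for Suz12, 10.6 to 14.5 over the libraries for Ezh2 (SD 1.71) and 8.22 ± 1.19 for Ezh1 (SD, n = 4). Neighbours whose ranges overlapped were Rbbp7 and Rbbp4 and then Ezh2 and Ezh1 in Suz12 cKO, and Suz12 and Ezh2 in wild type. Within each wild type library, however, the order was the same in all 4, with Suz12 between Eed and Ezh2 and with Ezh1 last. In every Suz12 cKO library Suz12 was last. Among all tested genes ranked by length-scaled level, Suz12 stood at percentile 30.5 in Suz12 cKO and 63.2 in wild type, Rbbp4 at 87.5 and 90.9, Rbbp7 at 88.1 and 85.4, Eed at 74.3 and 70.5, Ezh2 at 59.1 and 57.3, and Ezh1 at 52.8 and 48.2, in the same order of groups.

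**Figure D5:**
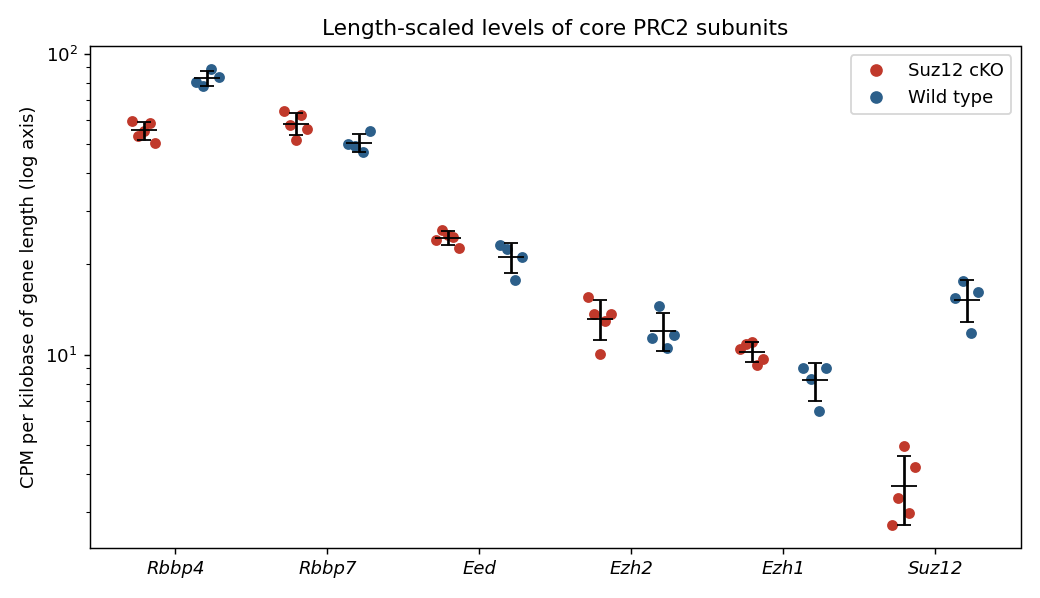
CPM per kilobase of gene length on a log axis for each core subunit and library, Suz12 cKO (red, n = 5) left of wild type (blue, n = 4), with the mean and SD in black. Rbbp4 leads in wild type at 82.8, Rbbp7 and Rbbp4 lie together in Suz12 cKO at 58.6 and 55.6, and Suz12 is the lowest in Suz12 cKO at 3.66.

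Profiles over the 9 libraries were compared by the root mean square difference of log2 CPM, each gene centred on its own mean. Nearest to Suz12 were Wdfy1, an endosomal phosphoinositide-binding protein (0.37), Cav2, a caveolin (0.43), and the nuclear noncoding RNA Malat1 (0.44), against a median of 1.11 over the genes compared. The log2 fold changes were -2.47 for Wdfy1, -1.54 for Cav2 and -2.08 for Malat1. Nearest to Rbbp4 were the calmodulin-dependent kinase Camk1 (0.057), the Mediator subunit Med28 (0.063) and Tmco1, a membrane protein of the endoplasmic reticulum (0.067), against a median of 0.386. The log2 fold changes were -0.55 for Camk1, -0.64 for Med28 and -0.63 for Tmco1. These genes were picked for their likeness across the same libraries, so their changes are a description.

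Of 10 tested accessory subunits and antagonists of PRC2, 1 was called higher (10%, against 8.97% of all tested genes) and 0 lower. Their median log2 fold change was 0.02. The member called was Epop, an elongin-binding accessory subunit, at 10.8, 13.6, 12.5, 14.7 and 13.7 CPM in Suz12 cKO libraries and 4.25, 3.93, 3.42 and 0.253 CPM in wild type libraries. All Suz12 cKO libraries lay above all wild type libraries, as held for 10.9% of all tested genes. Among the wild type, library 4 was far below its group. The log2 fold change was 2.14 (SE 0.51, adjusted p = 0.0108 by edgeR), and 1.75 without that library. Tested were 5 genes (the Y-linked Uty among them) for H3K27 demethylases and acetylases, which remove the mark or place the opposing one. Of these 1 was called higher (20%, against 8.97% of all tested genes) and 0 lower, with a median log2 fold change of 0.43. Sex was not balanced between the groups, and its part in the value of Uty and in this median was not tested. With Xist as a covariate 2 of the 5 were called higher, beside 1010 of all 12840 tested genes. Kdm6b, a demethylase, averaged 90.3 ± 18.2 CPM in Suz12 cKO and 61.0 ± 14.3 CPM in wild type (SD, n = 5 and 4, 0.57 on the log2 scale, SE 0.17, with an adjusted p of 0.0292 by edgeR). Its call was lost without Suz12 cKO library 2 or 5 or wild type library 1, 2 or 4 (adjusted p = 0.0569 to 0.0876) and after the length correction (0.161).

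Because RBBP4 and RBBP7 serve other complexes, the partners there were listed too. Of 13 NuRD genes 3 were called higher (23.1%, against 8.97% of all tested genes) and 0 lower, with a median log2 fold change of 0.04. Mbd3, the methyl-binding domain subunit, averaged 98.8 ± 6.32 CPM in Suz12 cKO and 76.1 ± 4.53 CPM in wild type (0.38 on the log2 scale, SE 0.08, with an adjusted p of 0.00578 by edgeR). The metastasis-associated subunits Mta1 (0.33, SE 0.11) and Mta2 (0.26, SE 0.08) passed narrowly, with adjusted p of 0.0413 and 0.0445 by edgeR. Mta1 lost its call without Suz12 cKO library 1, 2, 3 or 5 or wild type library 2 or 4 (adjusted p = 0.0559 to 0.0968), and Mta2 without Suz12 cKO library 1, 2, 3 or 5 or wild type library 1, 3 or 4 (adjusted p = 0.0656 to 0.0854). The NuRD count higher was 1 after the length correction, with the Xist covariate, or without Suz12 cKO library 1, 2, 3 or 5 or wild type library 4.

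Of 13 Sin3 genes 1 was called lower (7.69%, against 11% of all tested genes) and 0 higher, with a median log2 fold change of 0.11. The count higher was 2 without wild type library 2, 1 without wild type library 3 or 4, 1 with limma voom and 3 with library totals alone. The count lower was 2 with the DESeq2-type size factors, DESeq2, limma voom, the stricter filter or the length correction. The gene called lower was Sap30, a bridging subunit, at 23.3 ± 1.94 CPM in Suz12 cKO and 37.5 ± 9.39 CPM in wild type (-0.68 on the log2 scale, SE 0.16, with an adjusted p of 0.00716 by edgeR). The 8 tested partners in CAF-1, HAT1, NURF and MuvB had a median of -0.19. Among them 1 was called lower (12.5%, against 11% of all tested genes) and 0 higher. It was Lin52 of MuvB, at 8.13 ± 1.47 CPM in Suz12 cKO and 14.3 ± 4.28 CPM in wild type (-0.82 on the log2 scale, SE 0.23, with an adjusted p of 0.0214 by edgeR). The call of Lin52 was lost without Suz12 cKO library 2 or 5 or wild type library 1 or 4 (adjusted p = 0.0504 to 0.0731).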

How the data were processed

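Polyadenylated RNA of sorted alveolar macrophages was measured by bulk RNA sequencing (TruSeq kit, per the labels' protocols, and single reads of 85 bases, per the series' design text). Raw counts per Entrez gene, as the authors deposited them, came with gene lengths in a joint table of 9 libraries and in 9 single tables, all 9 equal to it. Counts were made with featureCounts on mm10, per the submitters' processing notes. No source used here gives the aligner, annotation release or strand setting. RefSeq (GRCm38.p6) named 25275 of 27179 genes.

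The comparison was Suz12 cKO against wild type over all 9 libraries without covariates, in R 4.3.3 with edgeR 4.0.16 (TMM, filterByExpr, robust quasi-likelihood fit, Benjamini-Hochberg over 12840 genes, threshold 0.05), checked on simulated data. Levels are TMM-scaled CPM computed from the deposited counts. Log2 CPM used a prior count of 2. Ratios were tested by exact permutation over libraries. Alternatives used DESeq2 1.42.0, limma 3.58.1, other scalings and filters, a loess length correction (span 0.5), an Xist covariate, a replicate block, and each library left out. The libraries with Xist alone were added after seeing the data. Depth covers counting error only, since no molecular identifiers are given.

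The members and lists were chosen with earlier results of these data known. Named genes were the 6 core subunits, up to 5 called members per other list or its most abundant member, the 3 genes nearest in profile to each called subunit (mean log2 CPM of 1 or more), and the tested neighbours of Suz12.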

Additional observations from a re-analysis of the deposited data

Results flagged for a closer look

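The ratio of Rbbp4 to Rbbp7 in Suz12 cKO library 3 lay apart from its group. It was 1.07 per kilobase, against 0.903 to 0.937 in the other 4 Suz12 cKO libraries and 1.50 to 1.89 in wild type. The gap to the nearest library was 0.779 of the range of the group on the log2 scale. This was the only such case among 20 groups of values examined, and chance flags about 1 in 20.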

How the results depend on the processing

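Suz12 and Rbbp4 remained called lower, and Eed and Ezh2 uncalled with a positive sign, in all 19 alternatives, with log2 fold changes of -2.19 to -1.95, -0.70 to -0.46, 0.15 to 0.32 and 0.06 to 0.25. With library totals alone Ezh1 (0.43) and Rbbp7 (0.33) were called higher, 1966 genes were called higher, and the neighbour Utp6 turned positive (0.10). Leaving out 1 library at a time gave 0.18 to 0.27 for Rbbp7, called without Suz12 cKO library 3, -0.83 to -0.72 for the log2 ratio of Rbbp4 to Rbbp7, -2.41 to -2.21 for Suz12 to Eed, and -0.16 to 0.011 for Ezh2 to Eed, which turned positive without Suz12 cKO library 3 (0.011). Utp6 ranged from -0.053 to 0.022, turning positive without Suz12 cKO library 3 (0.01) or wild type library 3 (0.022) or 4 (0.0066). Over all 12 alternatives for the ratios, a gene length correction among them, Rbbp4 to Rbbp7 ranged from -0.89 to -0.72. Suz12 to Eed ranged from -2.43 to -2.21. The ratios of Rbbp4 to Rbbp7 and Suz12 to Eed had an adjusted exact p of 0.0571 without any 1 of the Suz12 cKO libraries, where the smallest p is 0.0286. In the libraries with Xist only, added after seeing the data, 199 genes were higher and 646 lower, and Kdm6b, Mbd3, Mta1, Mta2, Sap30, Lin52 and Tyms lost their calls, leaving 0 NuRD genes higher and 0 Sin3 genes lower. Of the proliferation genes 10 were lower with DESeq2 (beside 1614 of all 12840 tested genes), against 6 in the main fit. The count was 11 without Suz12 cKO library 1 (1147 of 12657) and 5 without Suz12 cKO library 3 (1410 of 12717). It was 4 with library totals alone (1013 of 12840) and without wild type library 1 (1173 of 13228).

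Replicate numbers are shared by the groups but no label ties them to a litter or batch, and same-numbered libraries deviated together with r from -0.06 to 0.11 across genes. With the replicate block (libraries 1 to 4) 741 genes were higher and 1121 lower, the log2 ratio of Rbbp4 to Rbbp7 was -0.77 and that of Suz12 to Eed -2.39 (exact sign-flip p = 0.125, the smallest possible), and Epop (adjusted p = 0.0781 by edgeR), Mta1 (0.128) and Mta2 (0.114) lost their calls. The block changed no other call of a named gene.

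For Eed, Ezh1, Ezh2 and Rbbp7 the 95% intervals reach 0.43, 0.57, 0.43 and 0.40 on the log2 scale. With 5 against 4 libraries, increases up to these sizes were therefore not excluded, although none of these genes was called in the main fit. For Eed and Ezh2 the intervals also reach below 0, to -0.01 and -0.17, so decreases up to these sizes were not excluded either.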
